A study of Mus musculus with 16 samples.

Results

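Messenger RNA of 10 genes of the apolipoproteins and of lipoprotein assembly was followed in the livers of young and old mice. The genes were Apoa1, Apoa2, Apoa4, Apoa5, Apob, Apoc1, Apoc2, Apoc3, Apoe and Mttp, taken by symbol from a table of 24010 entries, and all 10 were found. All 16 animals were C57BL/6 mice, and each had received a hydrodynamic injection into the tail vein, in which a large volume is pushed quickly into the blood so that plasmid DNA enters liver cells. The plasmid was of the EEV (enhanced episomal vector) type and either coded for hMANF, human mesencephalic astrocyte-derived neurotrophic factor, or was empty. The young control and young MANF groups were 5 months old and the old control and old MANF groups were 23 months old, with 4 animals in each group and livers taken 5 weeks after injection. The promoter of the plasmid and the sex of the animals were not given in the labels, and uninjected mice were not analysed here.

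Lipoproteins carry triglyceride and cholesterol through blood, and the liver makes most of their protein parts. The Apob protein is the scaffold of very-low-density lipoprotein (VLDL), and Mttp, a transfer protein of the endoplasmic reticulum, loads lipid onto it. Apoa1 and Apoa2 are the main proteins of high-density lipoprotein (HDL), whereas the Apoc proteins, Apoa5 and Apoe set how quickly triglyceride is hydrolysed and how remnant particles are cleared.

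Values were reads per kilobase of exon, scaled to the size of the library (RPKM), as deposited by the authors, and a gene was called when limma's adjusted p on log2(RPKM + 0.5) was below 0.05. The libraries held 18.31 to 26.12 M reads (M, megareads), 11.85 to 16.58 M of them in listed genes, and the 10 genes took 3.77 to 5.27% of the latter. The human MANF sequence was not analysed here, and the mouse Manf gene ranged from 8.57 to 14.4 RPKM in the young controls, 7.53 to 13.8 in the young MANF group, 5.95 to 8.26 in the old controls and 11.2 to 17.8 in the old MANF group. All 8 hepatocyte markers were read in every library, with a summed level of 26960 to 42440 RPKM. Of 7 enterocyte markers in the table, Alpi, Sis and Cdx2 were at 0 in all libraries and Vil1, Lct and Krt20 stayed under 0.5 RPKM, whereas Fabp2 was read at 24.3 to 74.3 RPKM. Old control replicate 4 and young MANF replicate 3 lay farthest from their groups over all tested genes, with root mean square deviations of 0.553 and 0.472 on the log2 scale against 0.241 to 0.369 in the other libraries. In such bulk tissue, fewer cells of a type and less RNA per cell cannot be told apart.

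Apoa1, Apoc3, Apoa4 and Apoa5 lie side by side on chromosome 9, and Apoe, Apoc1 and Apoc2 form a second cluster on chromosome 7. Of the 10 genes, 8 had an entry in the RefSeq promoter table (build GRCm38.p6), with 12 windows of 250 bases before and 50 after a start site. The windows of Apoa1, the gene with the smallest unadjusted p for the plasmid over both ages, and of Apoa5, the gene with a match to the E-box CACGTG, are shown. In the Apoa5 window, chr9:46268358-46268657 on the plus strand, the capitals mark CACGTG. The Apoa1 window, chr9:46228380-46228679 on the plus strand, held none of the searched letters and has no capitals.
Apoa1 promoter: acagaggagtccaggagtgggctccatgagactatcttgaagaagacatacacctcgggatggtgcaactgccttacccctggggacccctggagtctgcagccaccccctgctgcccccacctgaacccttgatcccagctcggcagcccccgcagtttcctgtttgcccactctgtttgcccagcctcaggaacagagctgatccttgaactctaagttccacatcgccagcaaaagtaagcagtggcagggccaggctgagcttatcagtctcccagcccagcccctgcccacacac
Apoa5 promoter: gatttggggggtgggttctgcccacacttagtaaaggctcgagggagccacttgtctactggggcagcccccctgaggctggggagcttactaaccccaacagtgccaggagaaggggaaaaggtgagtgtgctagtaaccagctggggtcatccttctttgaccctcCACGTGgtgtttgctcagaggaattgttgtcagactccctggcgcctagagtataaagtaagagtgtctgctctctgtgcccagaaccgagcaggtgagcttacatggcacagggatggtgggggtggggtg
The E-box began at -82 relative to this start site, and at -107 relative to a second annotated start. It was present in 7.15% of 32851 promoters of the same length. The nuclear receptor core motif AGGTCA, or its reverse complement TGACCT, occurred in 16.3% of promoters, among them Apoc2 (at -115 and 42) and the alternative start of Apoa2 (at -238). The direct repeat of this core with 1 base between the copies, which overlaps the core motif and occurred in 0.0396% of promoters, was in none of the 12 windows. All motifs were searched on both strands with exact letters, so sites with other letters were not counted.

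None of the 10 genes was called in any comparison. The share of all 10677 tested genes that was called was 1.25% for old against young control mice, 6.57% for old against young MANF mice and 15.6% for age over both plasmids. For MANF against control it was 0.0187% in young mice, 0.103% in old mice and 1.29% over both ages, a contrast that was added after the data had been seen. For the difference between the plasmid effects of the 2 ages, limma called 0 genes (0%), and 894 genes (8.37%) had an unadjusted p below 0.05. Of the 10 genes, 4 had an unadjusted p below 0.05 for MANF in young mice (Apoa1, Apoa2, Apoa5 and Apob), where 14.9% of all genes did. In old mice it was 1 gene (Apoa1), beside 9.7% of all genes, and over both ages 2 genes (Apoa1 and Apob), beside 14.1%. For age the count was 0, beside 14.9% of all genes in control mice, 33.4% in MANF mice and 33.5% over both plasmids, and it was also 0 for the difference between ages. The 4 animals of 1 group lay entirely above or below those of the other for 1 of the 10 genes with MANF in old mice (5.34% of all genes). This held for none of the 10 with MANF in young mice (8.89%), with age in control mice (10.5%) or with age in MANF mice (23.6%). Leaving out Apoa4 and Apoc2, the most variable genes, the 95% confidence intervals of the other 8 genes lay within -0.49 and 0.59 on the log2 scale for age in control mice and within -0.64 and 0.66 for MANF in young mice. In simulated data for the control comparison, 97% of genes changed by 1 on the log2 scale were called, but 12% of those changed by 0.5. A true change of the latter size could thus be missed with 4 animals a group. The simulation gave every gene the same spread, whereas the SD within groups ran from 0.168 (Apoa1) to 0.691 (Apoa4) on the log2 scale among the 10 genes. These shares therefore do not give the power for a single member.

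**Figure D1:**
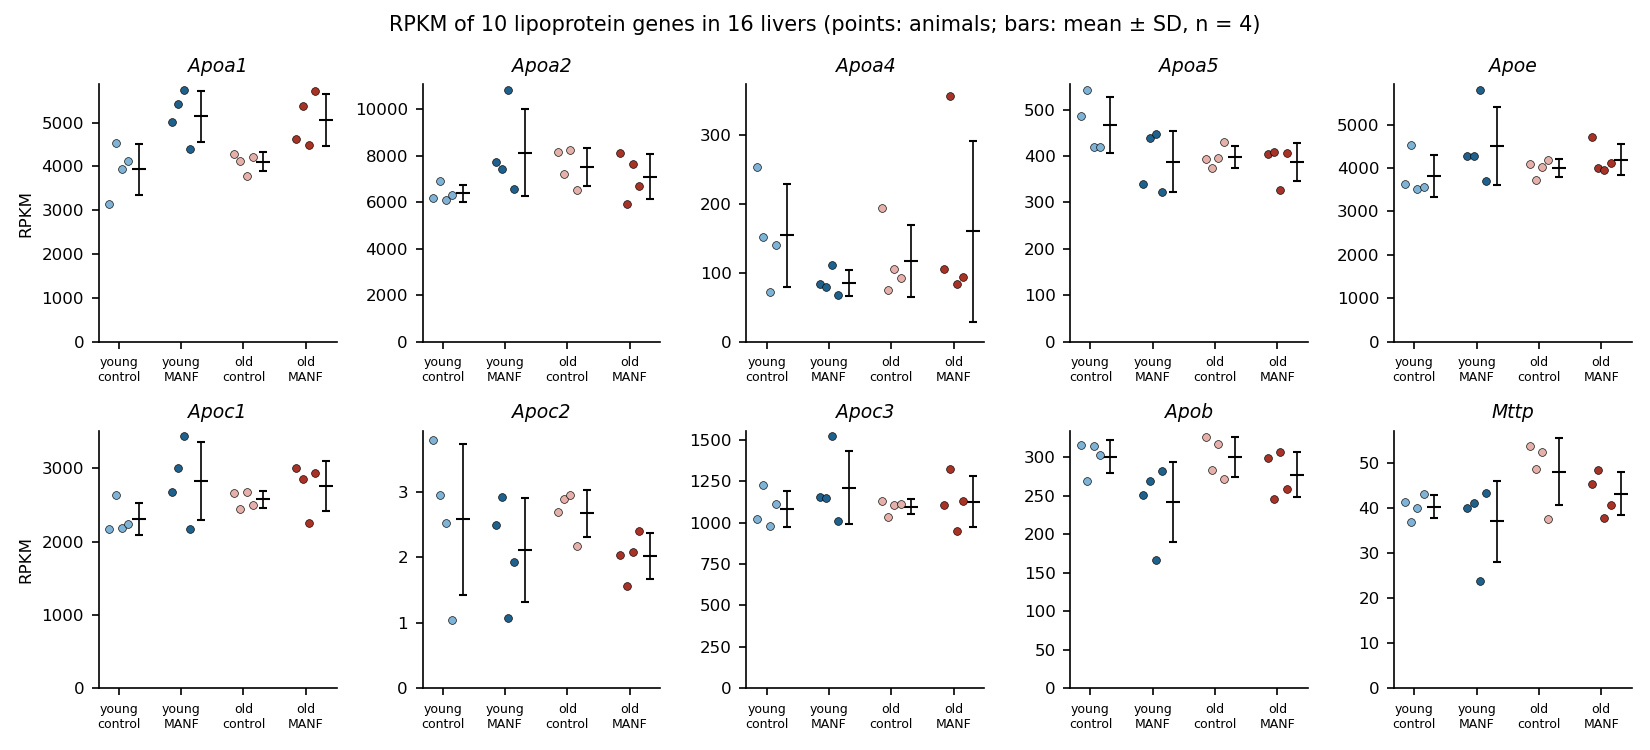
Deposited RPKM (y axes, each from 0) of the 10 genes in the 4 groups (x axes), with 1 point per animal and the mean ± SD (n = 4) beside the points. Apoa1 lies at 4398 to 5739 RPKM in the young MANF group and 4479 to 5722 RPKM in the old MANF group, and Apoa4 has 1 old MANF animal at 357.4 RPKM.

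Apoa1, the main structural protein of HDL and the activator of the cholesterol-esterifying enzyme of plasma, had a higher mean with the MANF plasmid at both ages, without passing the adjusted threshold. It was read at 3146, 4530, 3943 and 4133 RPKM in the young controls and at 5018, 5434, 5739 and 4398 RPKM in the young MANF group. In the old controls the values were 4282, 4128, 3789 and 4221 RPKM, and in the old MANF group 4632, 5383, 4479 and 5722 RPKM. All 4 old MANF animals were above all 4 old controls, while in young mice only MANF replicate 4 fell inside the control range. The fold of MANF over control was 1.31 (95% confidence interval 1.09 to 1.58, limma adjusted p = 0.227) in young mice and 1.23 (1.02 to 1.48, adjusted p = 0.447) in old mice. Over both ages it was 1.27 (1.11 to 1.45), with a log2 change of 0.34 ± 0.09 (SE), an unadjusted limma p of 0.00147 and an adjusted p of 0.0805. Under the 24 alternative settings the log2 change ran from 0.16 to 0.38 and the adjusted p from 0.054 to 0.42. The effects at the 2 ages differed by -0.098 (-0.476 to 0.281), and by age Apoa1 differed by 0.022 (-0.167 to 0.211) on the log2 scale.

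Apoa2, the second HDL protein, was the most abundant of the 10 genes per length and the second most abundant entry of the whole table in all 16 libraries. Its values were 6187, 6921, 6102 and 6314 RPKM in the young controls and 7721, 7420, 10820 and 6559 RPKM in the young MANF group. The old controls read 8158, 7210, 8233 and 6532 RPKM and the old MANF group 8122, 5941, 7639 and 6714 RPKM. The groups overlapped at both ages, and the highest value was that of young MANF replicate 3. The log2 change with MANF was 0.33 ± 0.15 (SE) in young mice (limma adjusted p = 0.324) and -0.088 ± 0.147 in old mice (adjusted p = 0.938). The difference between these effects was -0.41 (95% interval -0.854 to 0.027, adjusted p = 0.603).

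Apoa4, an apolipoprotein of chylomicrons and HDL that is also made in the intestine, varied more than the other 9 genes. It was read at 253.4, 151.7, 72.46 and 141.1 RPKM in the young controls and at 84.21, 79.66, 111.9 and 67.7 RPKM in the young MANF group. The old controls read 193.7, 75.99, 106.5 and 92.78 RPKM, and the old MANF group 105.3, 357.4, 84 and 94.55 RPKM. Each group overlapped each other group, and 3 of 4 young controls were above all young MANF livers. The residual SD of 0.69 on the log2 scale stood at the 97.6th percentile of all tested genes, against 0.17 for Apoa1. The log2 change with MANF was -0.735 (-1.654 to 0.184) in young and 0.259 (-0.66 to 1.178) in old mice, with wide intervals at both ages. Genes on the opposite strand cover up to 34.9% of the exon bases of Apoa4, 20.8% of Apoa5 and 7.4% of Mttp, and the sources used here do not say whether reads were counted by strand.

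Apoa5 raises, and Apoc3 restrains, the clearance of triglyceride by lipoprotein lipase. Apoa5 was read at 485.6, 542.9, 418.4 and 419.7 RPKM in the young controls and at 339.1, 439.7, 448.2 and 322.3 RPKM in the young MANF group. In the old controls it was at 393.2, 373.9, 395.3 and 431.2 RPKM and in the old MANF group at 404.1, 409.7, 327.2 and 407.4 RPKM. The young groups overlapped in part, with 2 MANF animals under all controls, and the old groups overlapped. Its log2 change with MANF was -0.276 (-0.543 to -0.008, limma adjusted p = 0.327) in young and -0.046 (-0.313 to 0.222) in old mice.

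Apoc3 was read at 1019, 1225, 978.6 and 1113 RPKM in the young controls, 1157, 1150, 1524 and 1007 RPKM in the young MANF group, 1130, 1032, 1109 and 1114 RPKM in the old controls and 1104, 1322, 946.9 and 1130 RPKM in the old MANF group. All groups overlapped, and the old controls spanned the narrowest range, 1.1-fold from lowest to highest. The ratio of Apoc3 to Apoa5, taken within each library, had a mean log2 value of 1.22 ± 0.14 (SD) in the young controls, 1.64 ± 0.18 in the young MANF group, 1.46 ± 0.07 in the old controls and 1.54 ± 0.11 in the old MANF group. It was higher with MANF by 0.249 over both ages (exact two-sided permutation test within ages, p = 0.0118, n = 16), which gave 0.0944 after Benjamini-Hochberg adjustment over the 8 ratio tests made. The other 7 tests had adjusted p of at least 0.368.

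**Figure D2:**
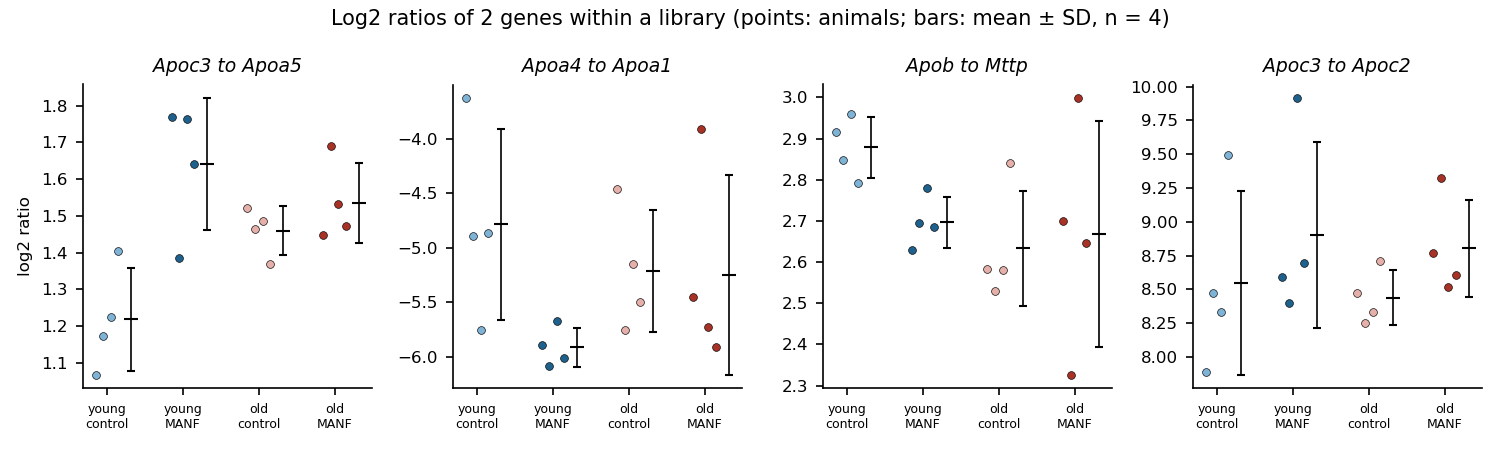
Log2 ratio of the RPKM of 2 genes within a library (y axes, not from 0) by group (x axes), with 1 point per animal and the mean ± SD (n = 4). The mean of Apoc3 to Apoa5 is 1.22 in the young controls and 1.64 in the young MANF group, and the groups overlap.

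Apoc1, an inhibitor of lipoprotein uptake and of lipid transfer, was read at 2179 to 2637 RPKM in the young controls, 2173 to 3441 in the young MANF group, 2449 to 2682 in the old controls and 2258 to 3003 in the old MANF group. The groups overlapped in each comparison, and the log2 change with MANF was 0.275 (-0.008 to 0.559) in young and 0.092 (-0.191 to 0.375) in old mice. Apoe, the ligand by which remnants bind hepatic receptors, was read at 3622, 4539, 3515 and 3573 RPKM in the young controls and 4267, 4275, 5797 and 3696 RPKM in the young MANF group. In the old controls it was at 4090, 3713, 4026 and 4175 RPKM and in the old MANF group at 4708, 4009, 3942 and 4104 RPKM. Apoe did not separate any pair of groups, with log2 changes of 0.23 (-0.046 to 0.506) for MANF in young mice, 0.103 without young MANF replicate 3, and -0.006 (-0.202 to 0.189) for age. Macrophages also express Apoe, and the summed level of 12 Kupffer cell and macrophage markers was 1145 RPKM in old control replicate 4 against 52.99 to 414.6 RPKM in the other 15 libraries. Apoe in that library, 4175 RPKM, was within 0.084 of its group on the log2 scale, and the part of these cells in the Apoe level was not tested.

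Apoc2, the cofactor that lipoprotein lipase needs, was nearly unread in the table, with 17 to 70 reads per library and 1.04 to 3.79 RPKM. Its neighbour Apoc4 had 60.5 to 101 RPKM. In the GENCODE M21 annotation (GRCm38), 646 of the 813 exon bases of Apoc2 (79.5%) and all 291 coding bases before the stop also belong to Gm44805, a gene model on the same strand that has no exon base outside other genes and was listed at 0 in all 16 libraries. Of Apoc4's 2537 exon bases, 119 (4.7%) are shared. Both annotated transcripts of Gm44805 hold the coding sequence of Apoc2, which spans chr7:19671761-19673601 on the minus strand and is shown because reads from it match both models, with the start and stop codons in capitals.
Apoc2 coding sequence: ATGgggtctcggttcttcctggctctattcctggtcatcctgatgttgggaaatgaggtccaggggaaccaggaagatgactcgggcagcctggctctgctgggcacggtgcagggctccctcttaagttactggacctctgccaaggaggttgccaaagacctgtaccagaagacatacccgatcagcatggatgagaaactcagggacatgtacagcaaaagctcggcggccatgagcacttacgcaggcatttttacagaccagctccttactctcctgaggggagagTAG
How such reads were assigned is not given in the sources used here, so it cannot be told how far the RPKM of Apoc2 measures its abundance. Its 4 values were 3.79, 2.95, 2.53 and 1.04 RPKM in the young controls and 2.5, 2.91, 1.08 and 1.92 RPKM in the young MANF group. In the old controls they were 2.68, 2.89, 2.94 and 2.16 RPKM, and in the old MANF group 2.03, 1.56, 2.08 and 2.4 RPKM. The groups overlapped, and the log2 changes with MANF were -0.204 (-0.776 to 0.368) in young and -0.335 (-0.907 to 0.238) in old mice, sizes that the pseudocount of 0.5 reduces at this level.

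Apob was read at 315.2, 269.4, 314.9 and 302.6 RPKM in the young controls and 250.9, 268.9, 166.8 and 282.6 RPKM in the young MANF group. The old controls read 326, 283.7, 317.1 and 272.1 RPKM and the old MANF group 298.3, 246.1, 306.1 and 258.3 RPKM. The groups overlapped at each age, with 3 of 4 young MANF animals under all young controls. The log2 change with MANF was -0.336 (-0.637 to -0.036, limma adjusted p = 0.311) in young and -0.115 (-0.415 to 0.186, adjusted p = 0.9) in old mice, and with age it was 0.106 (-0.107 to 0.318), or 0.021 without young MANF replicate 3. Mttp was read at 41.36, 36.99, 40.04 and 43.23 RPKM in the young controls, 40.13, 41.12, 23.87 and 43.5 RPKM in the young MANF group, 53.98, 48.71, 52.53 and 37.57 RPKM in the old controls and 45.48, 48.63, 37.89 and 40.85 RPKM in the old MANF group. In control mice 3 of 4 old animals were above all young animals, and old control replicate 4 was the exception. Its log2 change with age over both plasmids was 0.243 (-0.004 to 0.49, limma adjusted p = 0.156), and 0.201 with an adjusted p of 0.0457 without old control replicate 4 and young MANF replicate 3. Without young MANF replicate 3 alone it was 0.145 (adjusted p = 0.236).

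**Figure D3:**
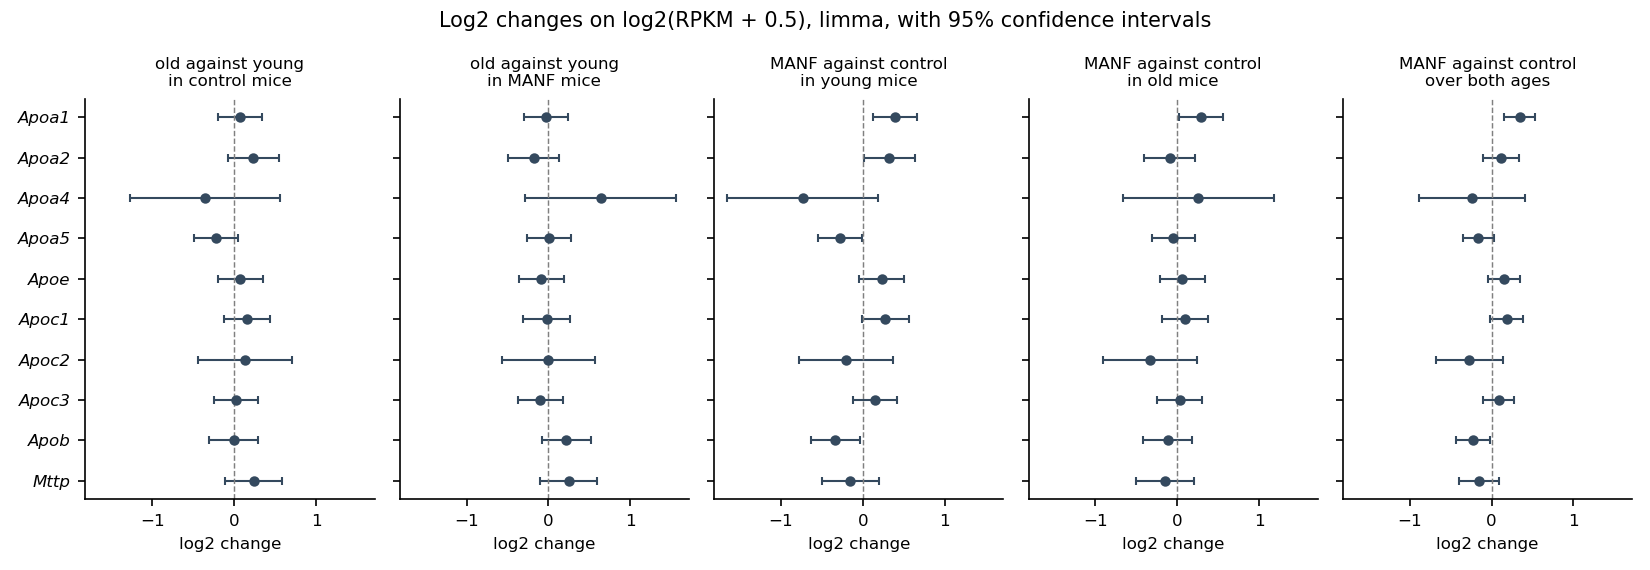
Log2 change on the log2(RPKM + 0.5) scale (x axes) of the 10 genes (y axis) in 5 comparisons, as points with 95% confidence intervals from limma. Apoa1 lies at 0.39 and 0.29 for MANF in young and old mice, and the interval of Apoa4 is the widest.

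In young MANF replicate 3, where Apob and Mttp were low, deviations over all genes went with gene length. In that library Apob (13934 exon bases) was 0.678 and Mttp (6206 bases) 0.787 on the log2 scale below the other 3 of the group, whereas Apoa2 (537 bases) was 0.584 above them. Apoc2 (813 bases, 17 to 70 reads) went the other way from the short genes, with a deviation of -0.884. Over all 10677 tested genes, Spearman's rho between this deviation and exon length was -0.435 in young MANF replicate 3 and 0.428 in young MANF replicate 4. In replicate 3 the median deviation was 0.192 for 481 genes under 1 kilobase and -0.312 for 3791 genes over 5 kilobases. Without that library the log2 change with MANF in young mice was -0.167 for Apob, 0.179 for Apoa2 and 0.042 for Mttp, against -0.336, 0.325 and -0.154 with it. Across the 16 libraries, deviations from the group mean had a Pearson's r of -0.83 between Apob and Apoc3 and 0.76 between Apob and Mttp. The latter was 0.39 without the 2 outlying libraries, while Apoa5 and Apoc1 had 0.85 with and 0.86 without them. These points share a library, its depth and its length profile.

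**Figure D4:**
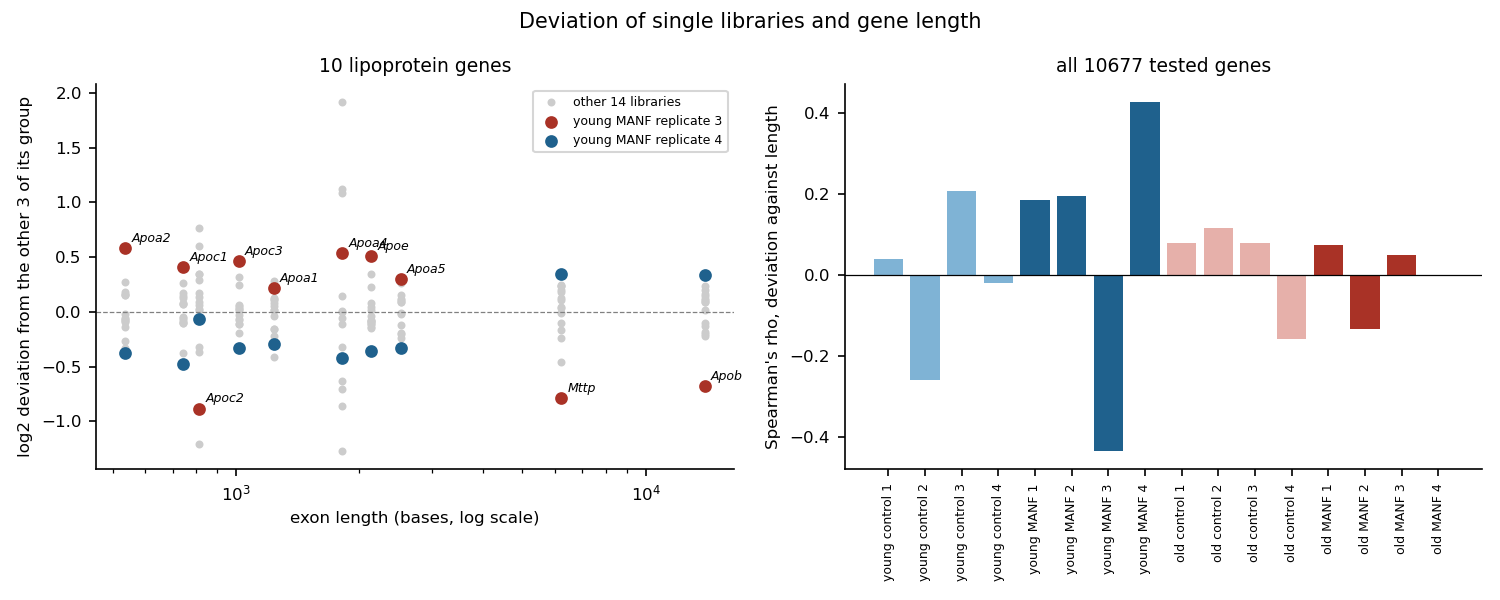
Left, log2 deviation of the 10 genes from the other 3 libraries of their group (y axis) against exon length on a log axis, and right, Spearman's rho of that deviation with length over 10677 genes in each library (y axis, 1 bar per library). Young MANF replicates 3 and 4 have rho of -0.435 and 0.428.

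Ordered by the median RPKM over 16 libraries, Apoa2 (7065) was followed by Apoa1 (4438), Apoe (4058), Apoc1 (2652), Apoc3 (1113), Apoa5 (408.5), Apob (283.1), Apoa4 (99.9), Mttp (41.2) and Apoc2 (2.45). Neighbours in this order were ranked the same way in all 16 libraries, except that Apoa1 was above Apoe in 11 and Apob above Apoa4 in 15. Among the genes whose log2 level was most like that of a member over the 16 libraries were Amdhd1 and Ttc36 for Apoa1 (r = 0.918 and 0.915), Nudt12 for Mttp (0.964) and Fkbp8 for Apoe (0.953). Of the 21 tested genes that flank the 10, none was called for MANF, and for age over both plasmids Pafah1b2 beside the chromosome 9 cluster (log2 0.264, limma adjusted p = 0.0228) and Fcer1g beside Apoa2 (log2 1.302, adjusted p = 0.0217) were. In the latter comparison 15.6% of all tested genes were called. Fcer1g, a receptor subunit of myeloid cells, ranged from 2.19 to 53.5 RPKM.

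Among 20 tested genes of VLDL assembly and export, 5 were called for age over both plasmids, 2 higher and 3 lower, beside 15.6% of all genes. The median log2 change was 0.041 against 0.112 for all genes. Sort1, a sorting receptor that binds apolipoprotein B, fell in old mice to 0.563-fold (limma adjusted p = 0.00185). It was read at 2.51, 2.34, 1.97 and 2.84 RPKM in the young controls and 0.733, 0.83, 0.571 and 1.57 RPKM in the old controls, with no overlap. With MANF the young group, at 1.57 to 3.11 RPKM, overlapped the old group, at 1.29 to 1.62 RPKM. The carboxylesterases Ces3a and Ces3b fell to 0.657-fold (adjusted p = 0.000776) and 0.567-fold (adjusted p = 0.00926). Ces3a was at 480.4 to 525.4 RPKM in the young controls, 462.5 to 622 in the young MANF group, 369 to 384.3 in the old controls and 244.3 to 370.9 RPKM in the old MANF group, so no old animal reached a young one. Tm6sf2, a membrane protein needed to lipidate VLDL, rose 1.44-fold (adjusted p = 0.00576). It was at 6.38 to 9.14 RPKM in the young controls against 9.38 to 10.6 in the old controls, and at 6.77 to 11.01 in the young MANF group against 11.9 to 16.8 RPKM in the old MANF group. With MANF in old mice its log2 difference was 0.478 (adjusted p = 0.226), with no overlap. The fifth called gene, the carboxylesterase Ces1g (log2 0.431, adjusted p = 0.0232), was named after its value was seen. Within control mice only Sort1 was called (log2 -1.069, adjusted p = 0.0148), a call that was lost when young control replicate 1, young control replicate 4, old control replicate 1 or old control replicate 3 was left out (adjusted p up to 0.0692). Within MANF mice Ces3a, Ces3b and Tm6sf2 were called. The share of all tested genes called was 1.25% in control mice and 6.57% in MANF mice. Ces3b, at -1.002 on the log2 scale, was not called when replicate 1, 2 or 3 of either MANF group was left out (adjusted p up to 0.0742, log2 -0.731 without old MANF replicate 3). Nor was it called with the replicate block (-1.002, adjusted p = 0.0514), with no filter (-1.002, adjusted p = 0.0521) or under quantile normalization (-0.989, adjusted p = 0.0635). Tm6sf2 was not called under median scaling, quantile normalization or voom on recovered reads (adjusted p = 0.0626, 0.0521 and 0.0616). For MANF, limma called 0 of the 20 at either age, and 4 in young and 5 in old mice had an unadjusted p below 0.05, beside 14.9% and 9.7% of all genes.

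Of 15 tested lipoprotein receptor and efflux genes, 3 were called higher and none lower in old mice over both plasmids, with a list median of 0.181 against 0.112 for all genes. The 15.6% of all tested genes called in this comparison is close to that share. In control mice the list median was 0.036 against 0.054 for all genes. Mylip, which marks the low-density lipoprotein (LDL) receptor for degradation, rose 1.57-fold (limma adjusted p = 0.00576), from 1.11 to 2.45 RPKM in the 8 young livers to 2.09 to 3.64 RPKM in the 8 old ones. Abcg1, a cholesterol exporter (log2 0.58, adjusted p = 0.0265), and Lrp1, a remnant receptor (log2 0.27, adjusted p = 0.0304), were not called with libraries scaled to the same median (adjusted p = 0.0593 and 0.18) or under quantile normalization (0.0927 and 0.101). Lrp1 was not called under voom on recovered reads either (adjusted p = 0.268). With 1 library left out, the Abcg1 call was lost in 4 of 16 fits and the Lrp1 call in 7. Several marker sums were also higher with age in MANF mice, without overlap. They were those of Kupffer cells and macrophages, monocyte-derived macrophages, T and NK cells, stellate cells, cholangiocytes and adipocytes. In control mice all of these overlapped between ages. The sinusoidal endothelium sum did not overlap there (19.82 to 26.25 RPKM in the young and 40.78 to 58.01 RPKM in the old controls). Of 5 adipocyte markers, Adipoq, Plin1, Lep and Retn stayed under 0.5 RPKM in all libraries. So did Krt7, Krt19 and Cftr of 6 cholangiocyte markers, and these 2 sums thus rest on few genes. The cholangiocyte and monocyte-derived macrophage sums also moved together, at 119 and 126.9 RPKM in young control replicate 1 and 12.6 and 17.5 RPKM in young MANF replicate 3. The summed Kupffer cell and macrophage level was 52.99 to 172 RPKM in the young and 214.3 to 414.6 RPKM in the old MANF group, and 100.8 to 225 RPKM in the young and 172.1 to 1145 RPKM in the old controls. The T and NK cell sum was 0.67 to 0.899 RPKM in the young and 3.08 to 4.69 RPKM in the old MANF group, and the stellate cell sum was 48.4 to 61.5 and 93.4 to 115.3 RPKM. In the young and old controls the T and NK cell sum was 0.918 to 3.63 and 3.38 to 12.09 RPKM. The stellate cell sum there was 58.65 to 95.12 and 62.81 to 95.65 RPKM. The part of these cells in the receptor and efflux genes was not tested. Of 12 plasma lipoprotein enzymes and regulators, all lay above 0 for age in control mice, with a median log2 change of 0.305 against 0.054 for all genes. However, none was called there, and 7 had an unadjusted p below 0.05, beside 14.9% of all genes. In MANF mice 8 lay above 0, and the list median of 0.094 was below the 0.184 of all genes. There 1 had an unadjusted p below 0.05, beside 33.4% of all genes. Over both plasmids the list median was 0.158 against 0.112 for all genes, and Angptl8, a hepatic inhibitor of lipoprotein lipase, was called, having risen 2.23-fold with age (adjusted p = 0.0131). It was at 6.06 to 12.2 RPKM in the young controls, 8.49 to 17.6 in the young MANF group, 8.3 to 30.4 in the old controls and 17.2 to 55.4 RPKM in the old MANF group.

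A further list of 11 tested genes held other apolipoproteins together with Apobec1, A1cf, Apoo and Apool. Of these 11 genes, Apoh (log2 0.198, limma adjusted p = 0.0175) was higher and Apom (log2 -0.241, adjusted p = 0.0315) lower in old mice over both plasmids. In that comparison 15.6% of all genes were called. The list median was 0.026 against 0.112 for all genes. The Apoh call was lost under median scaling (adjusted p = 0.396) and voom on recovered reads (0.587). The Apom call was lost when replicate 2 or 4 of the young controls, 1 or 3 of the old controls, or 1 or 2 of the old MANF group was left out (adjusted p up to 0.0639). With MANF over both ages, the contrast added after the data had been seen, Saa4, an HDL-borne serum amyloid, fell to 0.681-fold (limma adjusted p = 0.0174). In this contrast 1.29% of all genes were called. Within either age alone Saa4 was not called, with an adjusted p of 0.0662 in old mice. It was at 102.8 to 136.3 RPKM in the young controls against 88.3 to 103 in the young MANF group, and at 126.5 to 221 in the old controls against 83.1 to 99 RPKM in the old MANF group. The summed level of 8 acute phase genes was 2650 to 4623 RPKM in the young controls, 2395 to 3009 in the young MANF group, 2709 to 7465 in the old controls and 2671 to 5586 RPKM in the old MANF group, and its part in the Saa4 change was not tested. Of 28 tested transcription factors known to act on apolipoprotein genes, Nr1d1 was called for MANF at both ages, beside 0.0187% of all genes in young and 0.103% in old mice. Rora and Mlxipl were called for age over both plasmids, beside 15.6% of all genes. Both calls were lost under median scaling (limma adjusted p = 0.0836 and 0.159), quantile normalization (0.123 and 0.0918) and voom on recovered reads (0.0804 and 0.193). With MANF, 7 of the 28 had an unadjusted p below 0.05 in young mice, 7 in old mice and 13 over both ages. Of all genes, 14.9%, 9.7% and 14.1% did. Nr1d1, a clock repressor that in mouse liver also acts on Apoc3, rose 2.75-fold in young (adjusted p = 0.00127) and 2.53-fold in old mice (adjusted p = 0.00345). It was at 5.73 to 8.08 RPKM in the young controls and 14.98 to 24.4 RPKM in the young MANF group, and at 7.17 to 7.79 in the old controls and 15.2 to 26.4 RPKM in the old MANF group. The hour of collection was not given in the labels. Apoc3 had a log2 difference of 0.088 (-0.104 to 0.28) with MANF over both ages.

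**Figure D5:**
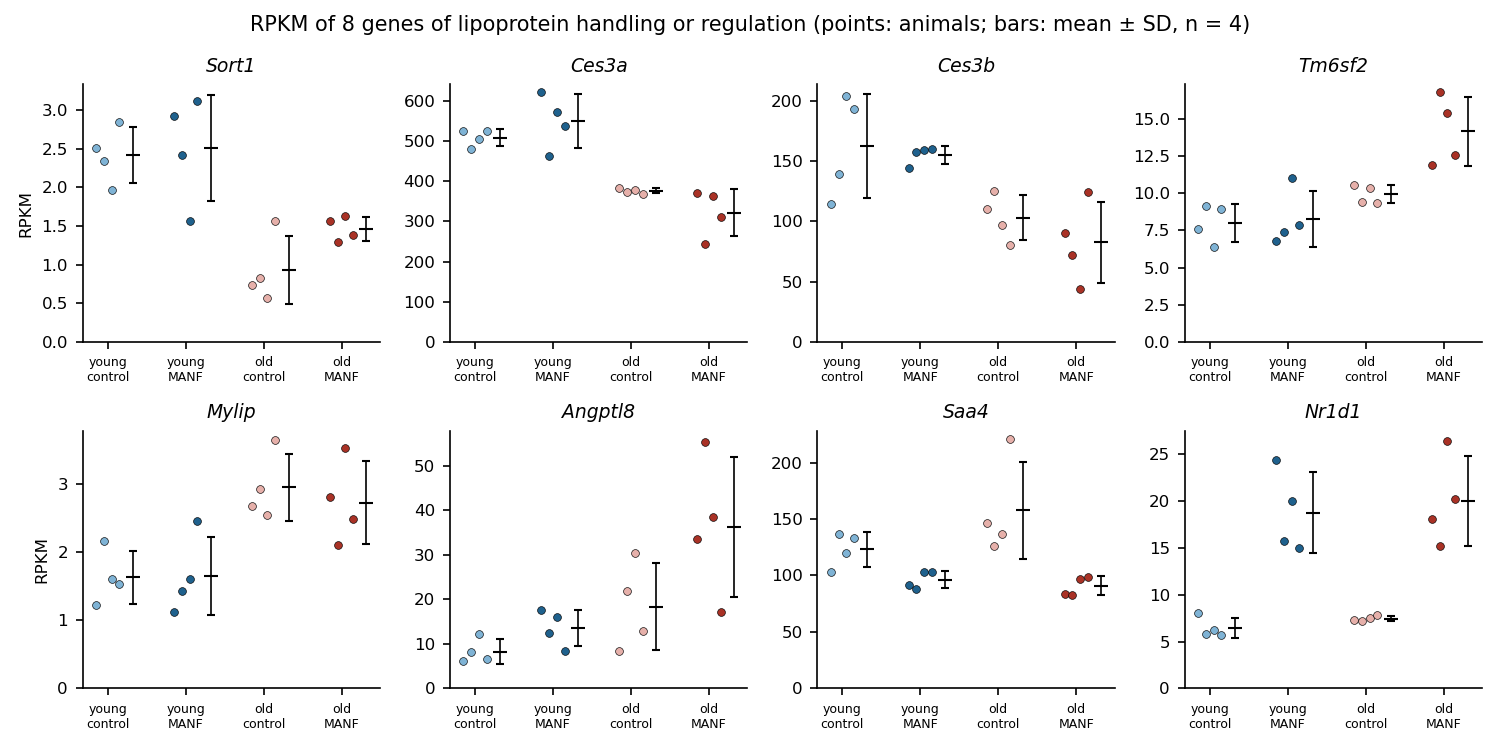
RPKM (y axes, each from 0) of 8 genes of lipoprotein handling or its regulation in the 4 groups (x axes), with 1 point per animal and the mean ± SD (n = 4). Ces3a is at 462.5 to 622 RPKM in the young and 244.3 to 384.3 RPKM in the old livers, and Nr1d1 is at or below 8.08 RPKM in controls and at or above 14.98 RPKM with MANF.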

How the data were processed

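Liver RNA of 16 mice in 4 groups of 4 was sequenced from TruSeq Stranded mRNA libraries, per the labels' protocols. The authors deposited RPKM values for 24010 entries. Per the submitters' processing notes, the tools were STAR 2.4.2a and HTSeq, with mm10 as the assembly. The other counting settings are not given in the sources used here. Whole reads behind the RPKM were recovered for 99.993% of values above 0, within a tolerance of 0.001 reads that widened to at most 0.2 reads, and were used for depths and 1 alternative.

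A gene was tested if 4 or more libraries reached 0.5 RPKM (10677 genes, all 10 members among them). Tests used limma 3.58.1 in R 4.3.3 on log2(RPKM + 0.5), with 1 mean per group, all 16 libraries and Benjamini-Hochberg adjustment over all tested genes. Fold changes are on the log2(RPKM + 0.5) scale, which understates low genes. The test was tested on simulated data, where 6% of its calls were false. Ratios of 2 genes, taken as differences of log2(RPKM + 0.5), were compared by exact permutation within ages or plasmids. Libraries were not paired by the replicate numbers of the labels in the main fit. Same-numbered libraries had correlations of -0.319 to 0.21, and whether they shared a day or batch was not tested. Labels do not state separate litters or days, so p-values measure the spread between these animals.

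Named genes were the 10 members, up to 4 called genes of smallest p per pathway list, the most correlated genes and the nearest flanking genes. Members and lists were chosen with earlier results of these data known. Alternatives were other pseudocounts, no filter, median scaling, quantile normalization, voom on recovered reads, fits of 2 groups, a replicate block, and leaving out each library or 2 libraries.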

Additional observations from a re-analysis of the deposited data

Results flagged for a closer look

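In 4 of the 40 sets of 4 animals (10 genes in 4 groups), 1 animal stood apart from the other 3 by Dixon's criterion, and chance gives about 1 in 20. Apoa4 was at 357.4 RPKM in old MANF replicate 2, against 84 to 105.3 RPKM in the other 3. Apoa5 was at 327.2 RPKM in old MANF replicate 3, against 404.1 to 409.7 RPKM. Young control replicate 2 had Apoc1 at 2637 RPKM, against 2179 to 2235 RPKM, and Apoe at 4539 RPKM, against 3515 to 3622 RPKM. Spearman's rho of deviation with exon length over all tested genes was -0.26 in that library, whose part in the Apoc1 and Apoe values was not tested.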

How the results depend on the processing

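Of 1720 recomputed log2 changes of the 10 genes, 1598 kept their direction and their side of the threshold, 100 reversed, 2 passed the threshold and 20 had no direction. Among the changes that reversed, the largest had a size of 0.259 on the log2 scale in the main fit, before reversal. The count of members called was 0 in every comparison and setting except age over both plasmids, where it was 1 under quantile normalization (Apoa1, log2 0.304, limma adjusted p = 0.0216) and 1 without old control replicate 4 and young MANF replicate 3 (Mttp). Quantile normalization fixes values by rank, so Apoa2, the second entry in all libraries, was at exactly 0 there. The median of all genes was 0.184 for age in MANF mice, 0.112 for age over both plasmids and 0.123 for the difference between ages, and at most 0.008 in size for these under median scaling.

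With age in control mice, Apoc3 was -0.027 under median scaling and -0.037 under voom, and Apob 0.04 without both outlying libraries. With age in MANF mice, quantile normalization gave Apoa1 0.298, Apoe 0.19 and Apoc2 -0.252. Median scaling gave Apoa5 -0.167 and Apoc2 -0.176, voom -0.213 and -0.234, and a pseudocount of 1 gave Apoc2 -0.007. Without both outlying libraries Apoa1 was 0.028, Apoc1 0.08, Apoc2 -0.221, Apoc3 0.02 and Apoe 0.038. With age over both plasmids, median scaling gave Apoa1 -0.09, Apoa2 -0.084, Apob -0.006, Apoc1 -0.042 and Apoc2 -0.046, and voom -0.117, -0.11, -0.025, -0.069 and -0.076. Quantile normalization gave Apoc2 -0.106 and Apoe 0.221, and leaving out both libraries gave Apoc2 -0.004, Apoc3 0.016 and Apoe 0.047. With MANF in young mice, the latter gave Apoc2 0.017 and Mttp 0.042. With MANF in old mice, quantile normalization gave Apoa5 0.022, Apoc1 -0.111, Apoc3 -0.083 and Apoe -0.022, median scaling gave Apoc3 -0.022 and voom -0.034. For the difference between ages, Mttp was -0.122 under median scaling, -0.15 under voom and -0.305 without both libraries, and Apoc3 was 0.008. The cause of these reversals was not tested.

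With 1 library left out at a time, these changes crossed 0. With age in control mice, Apoa1 ran from -0.033 to 0.142, Apob from -0.056 to 0.04, Apoc2 from -0.171 to 0.322 and Apoc3 from -0.027 to 0.081. With age in MANF mice, Apoa1 ran from -0.1 to 0.029, Apoa5 from -0.074 to 0.087, Apoc1 from -0.141 to 0.08, Apoc2 from -0.221 to 0.15, Apoc3 from -0.179 to 0.02 and Apoe from -0.178 to 0.038. With age over both plasmids, Apoa1 ran from -0.03 to 0.058, Apoa2 from -0.019 to 0.101, Apoa4 from -0.1 to 0.28, Apoc2 from -0.085 to 0.161, Apoc3 from -0.079 to 0.02 and Apoe from -0.051 to 0.057. With MANF in young mice, Apoc2 ran from -0.505 to 0.017 and Mttp from -0.242 to 0.042. With MANF in old mice, Apoa4 ran from -0.221 to 0.531, Apoa5 from -0.076 to 0.033 and Apoc3 from -0.051 to 0.109. For the difference between ages, Apoa1 ran from -0.171 to 0.006, Apoc2 from -0.352 to 0.171 and Mttp from -0.191 to 0.093.

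The log2 ratio of Apoa4 to Apoa1 differed by age by -0.106 to 0.31 with 1 library left out, and by plasmid by -0.804 to -0.388, the former (exact permutation p = 0.0118) without old MANF replicate 2. That of Apoc3 to Apoc2 differed by age by -0.213 to 0.065, and by 0.021 without both outlying libraries. By plasmid it differed by 0.515 (exact permutation p = 0.0196) without young control replicate 4. Apoc2 had 17 reads in that library and at most 70 in any library, so this ratio rests on few reads. The log2 ratio of Apob to Mttp differed by age by -0.192 to -0.08, the former (exact permutation p = 0.0139) without old MANF replicate 3. These permutation p-values are unadjusted and are the smallest over the 16 leave-one-out fits of each test. With all 16 libraries the exact permutation p was 0.144, 0.184 and 0.12 in the same order, each 0.368 after adjustment over the 8 ratio tests. The replicate block called 0 members in each comparison, and over all genes 85 against 133 without it for age in control mice, 459 against 702 for age in MANF mice and 6 against 11 for MANF in old mice. Over all other settings these counts ran from 37 to 229, 216 to 1810 and 2 to 362. For MANF they ran from 2 to 5 against 2 in young mice and from 59 to 209 against 138 over both ages, for age over both plasmids from 967 to 1861 against 1664, and for the difference between ages from 0 to 2 against 0.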
